A study of Mus musculus with 12 samples.

Results

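The BCL2 family was examined in oocytes of wild-type (WT) and Zar1/2-null mice, through 10 members chosen by name: Bcl2, Bcl2l1, Bcl2l10, Mcl1, Bax, Bak1, Bok, Bid, Bad and Bbc3. All 10 were found among the 23230 genes of the expression table. The oocytes came from females of a C57BL6/ICR hybrid strain that were either WT or knocked out for both Zar1 and its homolog Zar2, and they were growing oocytes, fully grown oocytes with an intact germinal vesicle (GV) and ovulated oocytes, which the labels call MII after metaphase of the second meiotic division. By the study's own account, ovulated null oocytes had stopped within the first meiotic division, so genotype and meiotic stage cannot be told apart in any comparison of null with WT oocytes labelled MII. The labels give 13.5-day-old females for the growing oocytes, where the methods of the study state a slightly younger age, and 21-day-old females for the GV oocytes. The GV oocytes were taken 44 h after PMSG, a hormone that makes follicles grow. The MII oocytes were taken 16 h after hCG, a hormone that triggers ovulation. In the study's methods for superovulation, PMSG came 44 h before hCG, in females of the same age range as for GV oocytes. The labels give no age for the MII groups. Each of the 6 groups had 2 libraries of 10 pooled oocytes made by Smart-seq2, which reads RNA with poly(A) tails from very small samples. In the study's tail assay, mRNAs of Ccnb1, Btg4 and Wee2 gained longer tails in maturing WT oocytes and not in null oocytes. The part of tail length in the MII values given here was not tested. Nothing in the labels says whether the libraries of a group came from separate females, so the p-values given here measure only the spread between these libraries.

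Proteins of the BCL2 family set whether the outer membrane of mitochondria stays intact. Pro-survival members such as BCL-2, BCL-XL and MCL-1 hold the effectors BAX and BAK in check, and members that carry only a BH3 domain, such as BAD, BID and PUMA, tip that balance. When effectors open the membrane, cytochrome c is released and starts a cascade of caspases. Ovaries lose most of their oocytes during life, many of them by this route, and the family has long been studied in oocytes for that reason. The transcript of Bcl2l10 (also called Diva or Boo) is known for its high level in mouse oocytes.

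Values are FPKM, fragments scaled to exon length and to the mapped fragments of the library, which the authors multiplied by a factor from the ERCC spike-in of each library. The factor was 1 in both WT growing libraries, 0.779 to 0.862 in null growing, 0.697 to 0.836 in WT GV, 0.533 to 0.583 in null GV, 0.225 to 0.228 in WT MII and 0.252 to 0.283 in null MII libraries. A library with fewer oocytes and one with less RNA per oocyte cannot be told apart by such a factor. Zar2, listed as Zar1l, was lower in both null libraries at each stage, with 13.2 to 20.9 FPKM against 504 to 644 FPKM in growing and GV oocytes and with 1.01 and 1.36 against 3.13 and 4.72 FPKM at MII. Zar1 was still read in null oocytes, and at MII it was higher there (190 and 194 FPKM) than in WT oocytes (83.6 and 72.4 FPKM). The 11 oocyte markers were detected in all groups and summed to 2389 to 19548 FPKM. The 15 granulosa and cumulus markers summed to 29.7 to 33.5 FPKM in WT growing and 14.7 to 22.9 FPKM in null growing oocytes, to 17.6 to 19.7 and 14.3 to 16.3 FPKM at the GV stage, and to 5.14 to 5.52 and 7.26 to 8.49 FPKM at MII. Cyp19a1 and Nr5a2 gave most of these sums, while Amh and Foxl2 stayed under 0.1 FPKM and Ptx3 was listed at 0 in every library. The granulosa sums therefore moved with genotype, and their part in the differences below was not tested. The 8 theca and stroma markers summed to at most 2.26 FPKM and the 10 immune markers to at most 3.68 FPKM.

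The ends of the 3′-UTRs of the 5 best expressed members are shown because a U-rich cytoplasmic polyadenylation element near the polyadenylation hexamer is a known control point of maternal mRNAs in maturing oocytes. Each line gives the 30 bases that end with the last AATAAA of the transcript, 5′ to 3′ on the transcript strand, from the mm9 genome and an annotation of that build. Capitals mark the hexamer and, in Bcl2l10, the letters TTTTAAT.
Bcl2l10, chr9:75199395-75199424, plus strand: catTTTTAATaacttcaaattcttAATAAA
Bcl2l1, chr2:152606425-152606454, minus strand: gtgaaggtgaaagtgcagttcagtAATAAA
Mcl1, chr3:95467057-95467086, plus strand: aacttctgtttcttctgaagagaaAATAAA
Bax, chr7:52717088-52717117, minus strand: ggaatggtggcctggggaggcgccAATAAA
Bad, chr19:7026340-7026369, plus strand: gaggtcgcgagaaacgtgctttatAATAAA
In Bcl2l10 the element began 21 bases before the hexamer. TTTTAAT or TTTTAT, searched on the transcript strand only and allowed to overlap the hexamer, was found in the last 100 bases of the 3′-UTR of Bcl2l10 and not in those of the other 4. Bcl2l1 and Mcl1 held such letters farther upstream, 262 and 817 bases before the hexamer. Of 18216 genes with a 3′-UTR of 100 bases or more, 17.6% held either motif in their last 100 bases, and 62.7% held AATAAA in their last 50 bases. A match describes letters in the annotated sequence and does not show that the element is used.

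Bcl2l10 was by far the most abundant member in every library. FPKM is a value per length, so the levels of the members can be set side by side. Bcl2l10 alone made up 97.0% to 99.8% of the summed FPKM of the 10 members. Its place among all 23230 genes of a library lay between 10 and 19 in the WT growing and GV libraries and was 5 in both WT MII libraries. In the null libraries it lay between 8 and 14 before maturation and was 6 and 5 at MII. By group mean Bcl2l1 came next and Bax after it in all 6 groups, and their libraries overlapped only in null GV oocytes. Bad, Mcl1 and Bok had at most 4.25, 4.37 and 1.09 FPKM. They held the places after Bax in all groups but WT MII, where every member past Bax was at 0.1 FPKM or less and Bok was listed at 0. Bad stood before Mcl1 without overlap in both GV groups and in null MII oocytes and after it in WT growing oocytes, and their libraries overlapped in null growing oocytes. Bcl2, Bak1, Bid and Bbc3 stayed under 1 FPKM in all 12 libraries. Only 6 of the 10 members therefore entered the tests, which took the 11502 genes that reached 1 FPKM in any library, and Bok entered through a single library (WT growing replicate 1, 1.09 FPKM).

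**Figure D1:**
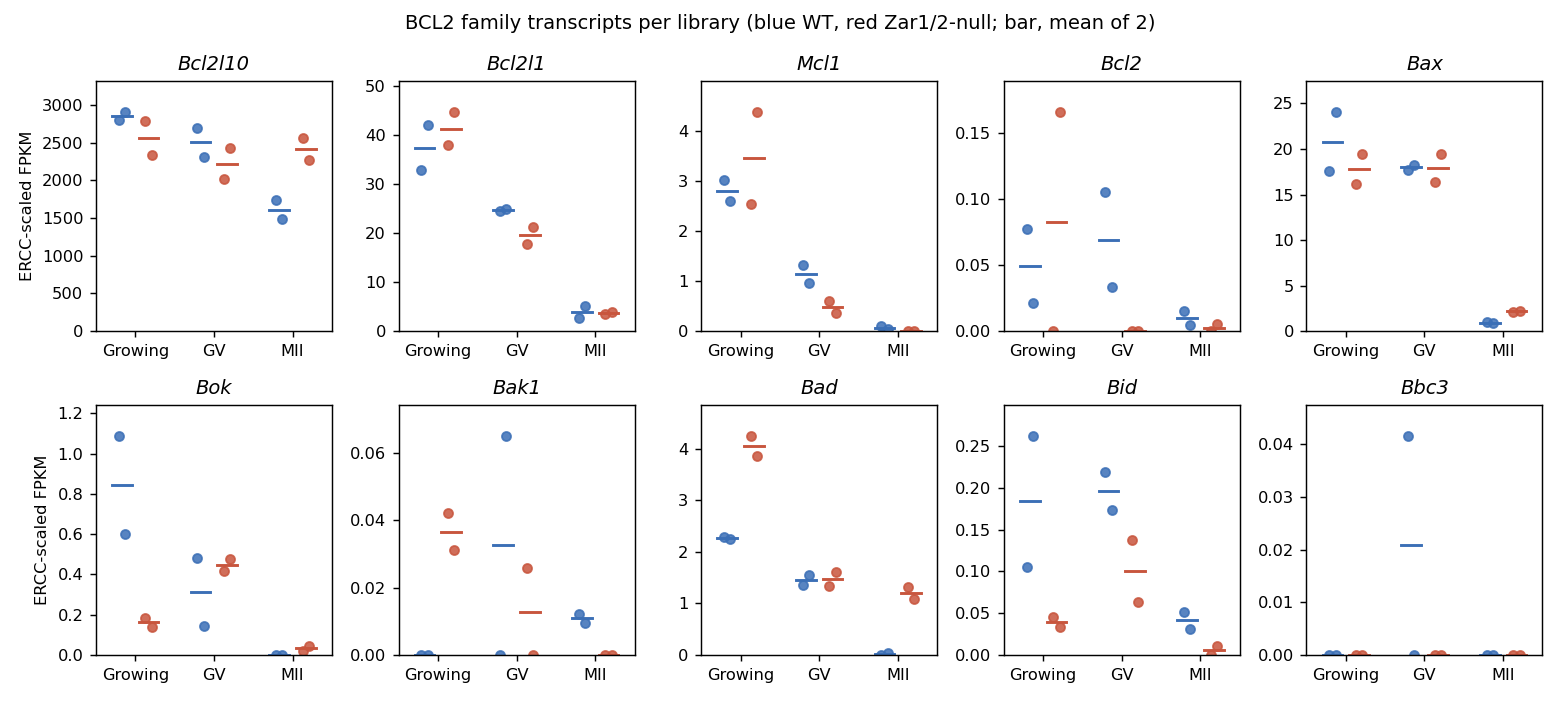
ERCC-scaled FPKM (vertical axis, its own scale in each panel, starting at 0) of the 10 members in growing, GV and MII oocytes, with 1 point per library, WT in blue and Zar1/2-null in red, and a bar at the mean of 2. Bcl2l10 lies far above Bcl2l1 and Bax in every library, and Bcl2, Bak1, Bid and Bbc3 stay under 1 FPKM throughout. At MII the null libraries lie above the WT libraries for Bcl2l10, Bax and Bad.

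Genotype differences were tested in 1 limma fit to log2(FPKM + 1) of the 12 libraries, with Benjamini-Hochberg adjustment over 11502 genes. The log2 fold changes, with their standard errors (SE), are differences on that scale, on which the added 1 FPKM makes the change of a low gene look smaller than it is. Among all genes, 35.0% were called at an adjusted p under 0.05 in growing, 43.4% in GV and 31.8% in MII oocytes, and 21.5% were called higher in null MII oocytes. Of the 6 members tested, Bad was higher and Bok lower in null growing oocytes, Mcl1 was lower in null GV oocytes, and Bcl2l10, Bax and Bad were higher in null MII oocytes. The call of Bok is not independent of the filter, which it passed through a WT growing library alone. The median log2 fold change of the 6 members was -0.00 in growing, -0.09 in GV and 0.32 in MII oocytes, beside -0.16, -0.38 and 0.06 over all genes tested. By the rule of more than 3-fold between group means, with means under 1 FPKM set to 1 FPKM, none of the 10 members differed between genotypes at any stage. That rule took in 4.52%, 4.66% and 8.82% of the genes tested in growing, GV and MII oocytes.

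**Figure D2:**
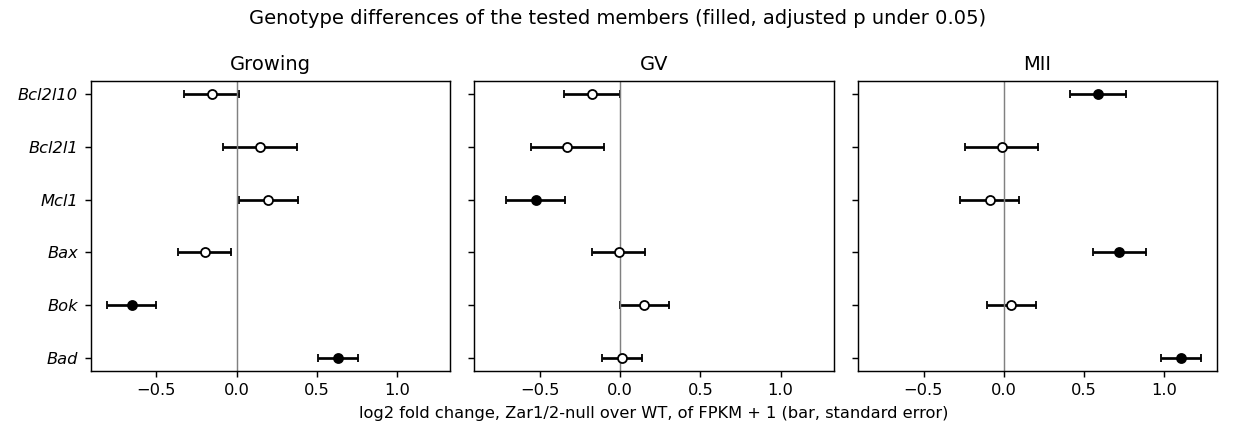
Log2 fold change of FPKM + 1 (horizontal axis, Zar1/2-null over WT) of the 6 tested members in growing, GV and MII oocytes, with the SE as a bar and filled points where the adjusted p was under 0.05. Bad is filled in growing and MII oocytes, Bok only in growing, Mcl1 only in GV, and Bax and Bcl2l10 only in MII oocytes.

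Among the pro-survival members, Bcl2l10 lies on chromosome 9 of mm9 (75195565 to 75199439, plus strand) and encodes a BCL2-like protein whose role in mouse cells is debated. Its level was 2794 and 2902 FPKM in WT growing oocytes and 2788 and 2342 FPKM in null growing oocytes. In GV oocytes it was 2699 and 2308 FPKM in WT and 2015 and 2422 FPKM in null libraries. The genotypes overlapped at the GV stage, and in growing oocytes the null libraries lay just below the WT libraries, without a call (log2 fold change -0.16, SE 0.17, adjusted p = 0.513).

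At MII, Bcl2l10 had 1737 and 1484 FPKM in WT oocytes and 2563 and 2275 FPKM in null oocytes. Both null libraries lay above both WT libraries, and the null mean was 1.50-fold the WT mean (2419 ± 204 against 1611 ± 179 FPKM, SD, n = 2 each). The log2 fold change was 0.59 (SE 0.17, adjusted p = 0.0222, limma). The call was lost with median scaling (0.36, adjusted p = 0.0663), with all genes in the fit (adjusted p = 0.135), with only the MII libraries in the fit (adjusted p = 0.130), without WT MII replicate 2 (adjusted p = 0.152) and without null MII replicate 1 (adjusted p = 0.121).

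The direction in which Bcl2l10 moved from GV to MII depended on the scaling. On the deposited scale it fell in WT oocytes, from 2504 ± 277 to 1611 ± 179 FPKM (log2 fold change -0.64, SE 0.17, adjusted p = 0.0042, limma). Its fall was smaller than the median change of all genes in WT oocytes, -1.28. With the factor divided out, the same libraries read 3229 and 3310 FPKM at the GV stage and 7730 and 6516 FPKM at MII, a log2 fold change of 1.12 (adjusted p = 6.77e-06), and with median scaling it was 1.48 (adjusted p = 5.79e-06). In null oocytes the change was 0.13 on the deposited scale (adjusted p = 0.523), 1.19 without the factor (adjusted p = 5.82e-06) and 1.47 with median scaling (adjusted p = 8.97e-06). The place of Bcl2l10 among all genes, which no factor can change, moved up from between 8 and 14 at the GV stage to 5 or 6 at MII.

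**Figure D3:**
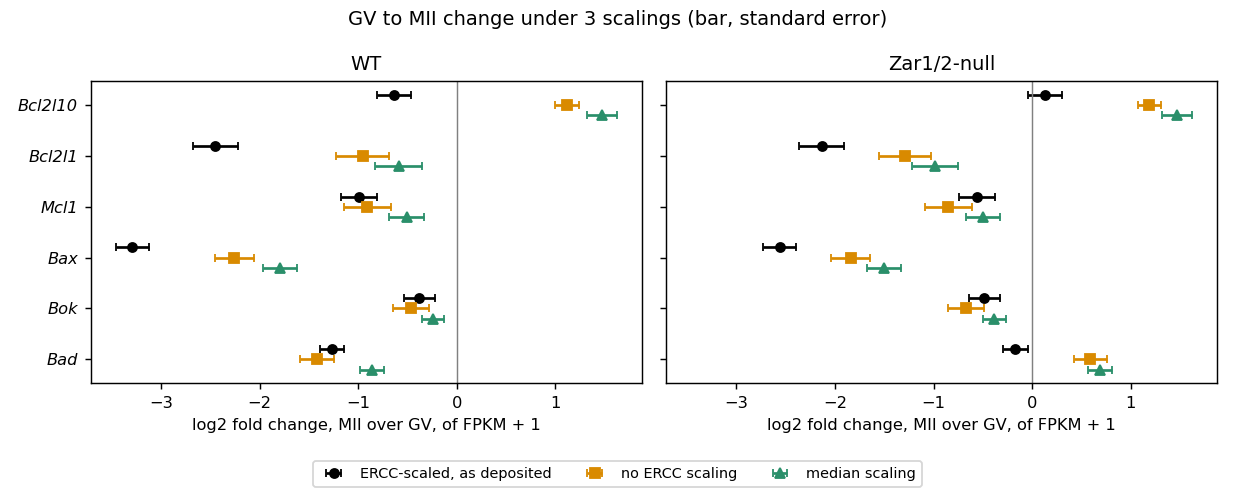
Log2 fold change of FPKM + 1 from GV to MII (horizontal axis, MII over GV) of the 6 tested members in WT (left) and Zar1/2-null oocytes (right) under 3 scalings, with the SE as a bar. Bcl2l10 crosses 0 in WT oocytes, from -0.64 as deposited to 1.12 and 1.48, and Bad crosses 0 in null oocytes, while Bcl2l1, Mcl1, Bax and Bok stay below 0 under all 3.

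Bcl2l1 (chromosome 2, 152593052 to 152657464, minus strand) encodes BCL-XL, which holds BAX and BAK inactive. It had 32.9 and 42.0 FPKM in WT growing, 38.0 and 44.7 FPKM in null growing, 24.5 and 25.0 FPKM in WT GV and 17.8 and 21.3 FPKM in null GV oocytes. At MII it was down to 2.61 and 5.13 FPKM in WT and 3.42 and 3.92 FPKM in null oocytes. The genotypes overlapped in growing and MII oocytes, and at the GV stage both null libraries lay below both WT libraries without a call (log2 fold change -0.33, SE 0.23, adjusted p = 0.258, limma). The median of all genes there was -0.38. The GV libraries overlapped without the factor (29.3 and 35.8 FPKM in WT, 33.4 and 36.5 FPKM in null oocytes). The change was then 0.11 (adjusted p = 0.828, limma), and with median scaling 0.19 (adjusted p = 0.625).

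From GV to MII, Bcl2l1 fell 6.39-fold in WT and 5.33-fold in null oocytes by the ratio of means (log2 fold changes -2.45 and -2.13, adjusted p = 1.13e-06 and 6.86e-06, limma). The fall was called under every alternative run, although the folds came down to 1.91 and 2.53 without the factor and to 1.50 and 2.09 with median scaling. From growing to GV it fell in null oocytes (log2 fold change -1.04, adjusted p = 0.0025) and the change in WT oocytes did not pass the test (-0.57, adjusted p = 0.0790). The fall in null oocytes lost its call without the ERCC factor (-0.51, adjusted p = 0.155) and with median scaling (-0.44, adjusted p = 0.173).

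Mcl1 (chromosome 3, 95462643 to 95467099, plus strand) encodes MCL-1, a short-lived pro-survival protein that oocytes are known to need. Its mRNA was low: 3.01 and 2.60 FPKM in WT growing and 2.54 and 4.37 FPKM in null growing oocytes, which overlapped. In GV oocytes it had 1.32 and 0.963 FPKM in WT and 0.607 and 0.371 FPKM in null libraries, and no null library reached a WT library. At MII it was near 0 in all 4 libraries, with 0.1 and 0.0475 FPKM in WT and 0.0077 and 0.0112 FPKM in null oocytes.

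The GV difference of Mcl1 was a log2 fold change of -0.53 (SE 0.18, adjusted p = 0.0390, limma), or 2.34-fold by the ratio of means. This call was the least stable among those between genotypes. It was lost without the factor (-0.41, adjusted p = 0.264), with median scaling (-0.24, adjusted p = 0.365), with all genes in the fit (adjusted p = 0.0780) and when any 1 of 7 libraries was left out: WT GV replicate 1 (adjusted p = 0.219), null GV replicates 1 and 2 (0.0563 and 0.176) or any MII library (0.0569 to 0.0573).

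Mcl1 fell from growing to GV in both genotypes, with log2 fold changes of -0.83 in WT (adjusted p = 0.0086) and -1.55 in null oocytes (adjusted p = 5.38e-05). The larger change in null oocytes was not called different from that in WT oocytes (interaction -0.72, SE 0.26, adjusted p = 0.0906, limma). In WT oocytes the call was lost with both other scalings and without WT GV replicate 2 (adjusted p = 0.0806). It was lower again at MII, by -0.99 in WT and -0.56 in null oocytes (adjusted p = 3.21e-04 and 0.0189), and in null oocytes this call was lost without GV replicate 1 (adjusted p = 0.116) or either MII replicate (0.0706 and 0.0705).

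Bcl2, which encodes the founding member of the family, was close to nothing in these oocytes. Its highest value was 0.166 FPKM, in null growing replicate 2, and the other null growing library was listed at 0. Both null GV libraries were listed at 0, beside 0.105 and 0.0334 FPKM in WT GV oocytes. Some 7.76% of its exon bases are shared with D630008O14Rik on the other strand.

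Of the effectors, Bax (chromosome 7, 52717065 to 52722268, minus strand), whose protein forms pores in the outer mitochondrial membrane, was the only one above a few FPKM. It had 17.5 and 24.0 FPKM in WT growing and 16.2 and 19.5 FPKM in null growing oocytes. WT GV oocytes had 17.7 and 18.2 FPKM and null GV oocytes 16.4 and 19.4 FPKM. The genotypes overlapped at both stages, and the GV means were 18.0 ± 0.346 and 17.9 ± 2.16 FPKM (SD, n = 2 each).

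At MII, Bax had 0.988 and 0.886 FPKM in WT oocytes and 2.14 and 2.24 FPKM in null oocytes. The null libraries lay above the WT libraries by a margin larger than the spread within either group, with a ratio of means of 2.34 and a log2 fold change of 0.72 (SE 0.17, adjusted p = 0.0063, limma). The call held under every alternative run, with adjusted p from 4.24e-04 to 0.0439. It held in particular without the factor (0.84) and with median scaling (0.78).

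On the log2(FPKM + 1) scale Bax showed the largest fall of the 6 members from GV to MII in both genotypes, under all 3 scalings. The ratio of means was 19.2 in WT and 8.17 in null oocytes, with log2 fold changes of -3.29 and -2.56 (adjusted p = 6.85e-09 and 1.24e-07, limma), and the fall stayed called under every alternative run. Without the factor the ratios were 5.72 and 3.89, and with median scaling 4.44 and 3.20. The 2 changes differed by 0.73 (SE 0.24, adjusted p = 0.0344 for the interaction). That difference lost its call without the factor (0.42, adjusted p = 0.332), with median scaling (0.29, adjusted p = 0.449), with all genes in the fit and without WT GV replicate 1 or 2, null GV replicate 1 or any MII library (adjusted p from 0.0700 to 0.0944).

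Bok, an effector that the pro-survival proteins restrain little, had 1.09 and 0.600 FPKM in WT growing and 0.185 and 0.137 FPKM in null growing oocytes, which did not overlap. The log2 fold change was -0.65 (SE 0.15, adjusted p = 0.0071, limma) and the call held under every alternative that tested it, with adjusted p up to 0.0489. Since Bok entered the test through a WT growing library alone, this comparison is not independent of the filter, and its p-value is given as a description only. Genes were chosen from all 12 libraries, so the fit without that library still tested Bok. The granulosa marker sum was lower in null growing oocytes as well. Mean Cyp19a1 was 17.9 FPKM in WT and 5.13 FPKM in null growing oocytes, Inha 2.75 and 1.68 FPKM and Kitl 2.44 and 0.461 FPKM. Nr5a2 went the other way, with 5.91 and 9.83 FPKM, as did traces of Has2, Tnfaip6 and Amhr2. A part of granulosa RNA in the Bok difference was not tested. In GV oocytes Bok had 0.480 and 0.143 FPKM in WT and 0.415 and 0.474 FPKM in null oocytes, which overlapped. The fall of Bok from growing to GV in WT oocytes (-0.49, SE 0.15, adjusted p = 0.0331, limma) depends on the filter in the same way, as does its genotype difference over that step. The fall was not called without WT growing replicate 1 (-0.30, adjusted p = 0.172), without WT GV replicate 2 (adjusted p = 0.216) or without any 1 MII library (0.0516 to 0.0520). At MII it was listed at 0 in both WT libraries and had 0.0207 and 0.0450 FPKM in null oocytes. Bak1, whose protein acts like BAX, reached at most 0.0651 FPKM, in WT GV replicate 2, and was listed at 0 in 6 of the 12 libraries.

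Of the members with only a BH3 domain, Bad (chromosome 19, 7016351 to 7026388, plus strand), whose protein binds BCL-XL and BCL-2, was the one that could be tested. It had 2.28 and 2.24 FPKM in WT growing and 4.25 and 3.86 FPKM in null growing oocytes. The null mean was 1.79-fold the WT mean, with a log2 fold change of 0.63 (SE 0.12, adjusted p = 0.0026, limma). The genotypes overlapped in GV oocytes, with 1.36 and 1.55 FPKM in WT and 1.34 and 1.61 FPKM in null oocytes.

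At MII, Bad was listed at 0 in WT replicate 1 and had 0.0416 FPKM in WT replicate 2, beside 1.33 and 1.08 FPKM in null oocytes. The groups were well apart, with a log2 fold change of 1.11 (SE 0.12, adjusted p = 3.49e-05, limma). The calls of Bad in growing and in MII oocytes held under every alternative that tested it, with adjusted p up to 0.0328 and 0.0026. Without the factor the MII values were 0 and 0.183 FPKM in WT and 4.68 and 4.27 FPKM in null oocytes, which placed Bad past the 3-fold rule.

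The transcript of Bad shares 25.8% of its exon bases (517 of 2007) with Gpr137 on the opposite strand, and the libraries carry no strand. Gpr137 itself was not called between genotypes, with log2 fold changes of 0.06 in growing (adjusted p = 0.857) and 0.18 in MII oocytes (adjusted p = 0.647, limma). It fell from GV to MII in both genotypes, by -2.11 in WT and -2.07 in null oocytes.

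Bad fell from growing to GV in both genotypes, by log2 fold changes of -0.41 in WT (adjusted p = 0.0285) and -1.03 in null oocytes (adjusted p = 5.79e-05, limma). The null call held under every alternative that tested it, and the WT call was lost without the factor (-0.17, adjusted p = 0.565), with median scaling (-0.13, adjusted p = 0.541), with a pseudocount of 0.1 FPKM, with only the compared libraries in the fit and without any 1 of the 4 WT growing and GV libraries (adjusted p from 0.0705 to 0.0929). From GV to MII it fell in WT oocytes (-1.26, adjusted p = 1.69e-06) and was not called in null oocytes (-0.17, adjusted p = 0.240). The difference between these changes was 1.10 (SE 0.18, adjusted p = 7.66e-04) and was called under every alternative that tested it. In null oocytes the direction turned with the scaling, to 0.59 without the factor (adjusted p = 0.0100) and 0.69 with median scaling (adjusted p = 5.94e-04).

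Bid, whose cut form links death receptors to mitochondria, stayed between 0 and 0.262 FPKM. It had 0.106 and 0.262 FPKM in WT growing and 0.0449 and 0.0332 FPKM in null growing oocytes. WT GV oocytes had 0.218 and 0.174 FPKM and null GV oocytes 0.137 and 0.0628 FPKM. The null libraries were the lower ones at both stages on the deposited scale, at levels too low for the test. Without the factor the GV libraries overlapped, with 0.261 and 0.249 FPKM in WT and 0.258 and 0.108 FPKM in null oocytes. It shares 17.7% of its exon bases with Bcl2l13 on the opposite strand, and Bak1 shares 14.8% with Ggnbp1. Bbc3, which encodes the p53 target PUMA, had 0.0416 FPKM in WT GV replicate 1 and was listed at 0 in the other 11 libraries.

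Across the stages, all 6 tested members were called lower at MII than at the GV stage in WT oocytes, where 93.4% of all genes tested were called lower and 93.5% were called in either direction. In null oocytes 4 of the 6 were called, all lower (Bax, Bcl2l1, Mcl1 and Bok), beside 68.7% of all genes called lower. The calls of Bok rested on single libraries. In WT oocytes the call was lost without GV replicate 1 (-0.19) or either MII replicate, and in null oocytes without GV replicate 2 or either MII replicate. The WT call was also lost with median scaling (-0.24, adjusted p = 0.0758, limma). From growing to GV, 3 of the 6 were called lower in WT (Bad, Bok and Mcl1, beside 28.7% of all genes called lower) and 3 in null oocytes (Bad, Bcl2l1 and Mcl1, beside 55.9%). The WT call of Bok is not independent of the filter, as said above. None of the WT calls held without the factor or with median scaling, where 2 and 1 of the members had an unadjusted p under 0.05 in limma. In null oocytes Bad and Mcl1 stayed lower under both scalings, while other members were called higher. Without the factor these were Bcl2l10 (0.35, adjusted p = 0.0420), Bax (0.54, adjusted p = 0.0498) and Bok (0.59, adjusted p = 0.0274), beside 14.3% of all genes called higher and 21.3% called lower. With median scaling they were Bax (0.59, adjusted p = 0.0225) and Bok (0.36, adjusted p = 0.0303), beside 16.2% and 19.4%. The median of the 6 members from GV to MII was -1.13 in WT and -0.52 in null oocytes, beside -1.28 and -0.72 over all genes.

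The change from growing to GV differed between genotypes for Bad (-0.62, adjusted p = 0.0402) and Bok (0.81, adjusted p = 0.0338, through the filter noted above), among 13.9% of all genes. From GV to MII it differed for Bad, Bax and Bcl2l10 (0.76, adjusted p = 0.0326 for the last), among 34.6% of all genes. Of these 5 differences, only that of Bad from GV to MII held under every alternative that tested it. That of Bcl2l10 went to 0.07 without the factor (adjusted p = 0.819) and to -0.0036 with median scaling (adjusted p = 0.994), and it was also lost without WT growing replicate 1 or 2, WT or null GV replicate 1, WT MII replicate 2 or null MII replicate 1 (adjusted p from 0.0565 to 0.119). That of Bad from growing to GV was lost in 11 of the 12 fits that left out 1 library (adjusted p from 0.0612 to 0.0886), null GV replicate 2 being the exception, and that of Bok in 9 of the 12 (0.0576 to 0.0817), where only WT growing replicate 2, null growing replicate 1 and WT GV replicate 1 could be left out.

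Ratios between members within a library can be read without any factor, since the factor cancels in a ratio. Bcl2l1 stood at 1.87 and 1.75 times Bax in WT growing oocytes and at 2.35 and 2.29 times Bax in null growing oocytes. At the GV stage the ratio was 1.38 and 1.37 in WT and 1.09 in both null libraries. At MII it was 2.64 and 5.79 in WT and 1.59 and 1.75 in null oocytes. The genotypes did not overlap at any stage, with null libraries higher in growing oocytes and lower at the GV stage and MII. How many other pairs of genes separate in this way was not counted. The WT ratios at MII rest on Bax values of 0.988 and 0.886 FPKM and lie far apart. An exact permutation test of 2 libraries against 2 has 0.333 as its smallest p, so the ratios are given as values without a test. Bcl2l10 stood at 52.5 to 114 times Bcl2l1 in the growing and GV libraries and at 289 to 750 times at MII.

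**Figure D4:**
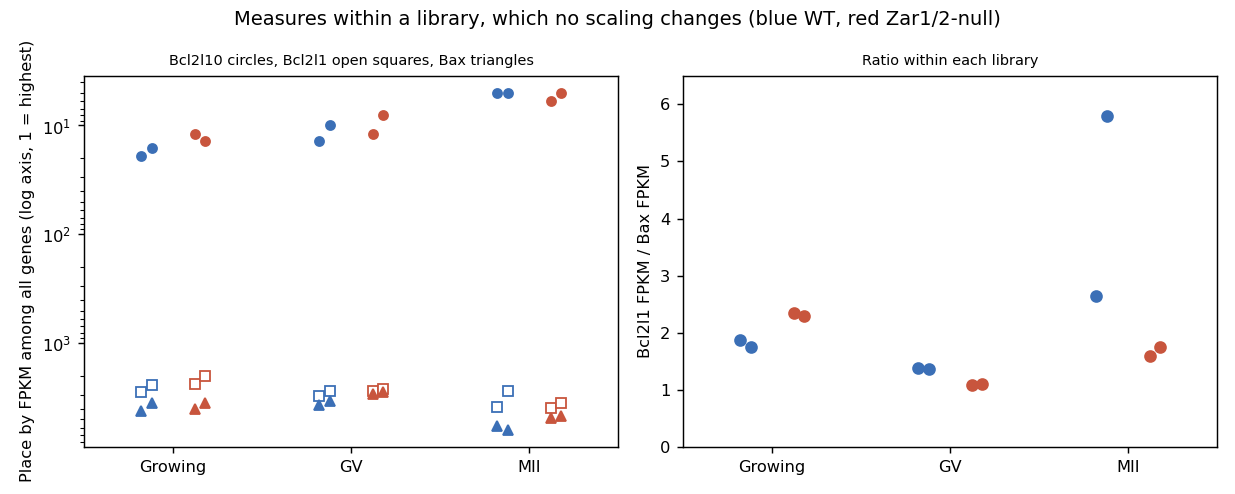
Left, place of Bcl2l10, Bcl2l1 and Bax among all 23230 genes of each library (vertical log axis, 1 = highest FPKM) in growing, GV and MII oocytes, WT in blue and Zar1/2-null in red. Right, ratio of Bcl2l1 to Bax FPKM in each library, from 0, where the MII ratios are 2.64 and 5.79 in WT and 1.59 and 1.75 in null oocytes.

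The other genes of the pathway were taken from 4 lists: 16 further BCL2 family genes, 13 genes of caspase activation downstream of mitochondria, 5 genes of inhibitors of apoptosis proteins and 4 genes of the p53 family. Of the 38 listed genes, 29 were tested. In null growing oocytes 9 were higher and 5 lower, beside 10.6% and 24.4% of all genes tested. In null GV oocytes 1 was higher and 12 lower, beside 2.83% and 40.6%, and in null MII oocytes 10 were higher and 3 lower, beside 21.5% and 10.3%. Their median log2 fold changes were -0.06, -0.40 and 0.26, beside -0.16, -0.38 and 0.06 over all genes. The split at the GV stage turned with the scaling, to 4 higher and 1 lower without the factor (7.19% and 13.5% of all genes) and 5 higher and 1 lower with median scaling (9.67% and 11.4%). In growing oocytes it was 10 and 1 without the factor (14.9% and 12.3%) and 9 and 1 with median scaling (15.8% and 11.9%). At MII it was 12 and 4 (24.6% and 23.4%) and 10 and 4 (25.0% and 23.6%). Genes are named below where a group mean reached 5 FPKM.

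Of the 16 further BCL2 family genes, 8 were tested. Bik, which encodes a BH3-only protein, was higher in null oocytes at all 3 stages. It had 15.4 and 13.4 FPKM in WT growing and 60.7 and 45.0 FPKM in null growing oocytes, 11.97 and 14.0 against 28.2 and 29.5 FPKM at the GV stage, and 1.87 and 2.37 against 8.61 and 7.08 FPKM at MII. The null libraries were 3.68-, 2.22- and 3.70-fold the WT by the ratio of means, with log2 fold changes of 1.80, 1.10 and 1.50 (adjusted p = 4.06e-05, 7.32e-04 and 5.40e-05, limma), and all 3 calls held under both other scalings.

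In the same list, Bcl2l13 was lower in null oocytes at all 3 stages on the deposited scale (log2 fold changes -0.47, -0.95 and -0.59), and only the MII difference was called under the other scalings (-0.99 without the factor and -0.92 with median scaling). Bnip3, which encodes a BH3-like protein known for mitochondrial autophagy, was lower in growing and GV oocytes (-0.62 and -0.73), and neither call held under the other scalings. At MII it was not called on the deposited scale (-0.28, adjusted p = 0.298) but was lower without the factor (-0.53, adjusted p = 0.0189) and with median scaling (-0.51, adjusted p = 0.0197). Its relative Bnip3l was higher at MII, with 12.3 and 12.01 FPKM in WT and 34.1 and 23.3 FPKM in null oocytes (1.15, adjusted p = 7.27e-04, limma). Bcl2l12 and Bcl2l15 were not called between genotypes on the deposited scale at any stage, and without the factor Bcl2l15 was higher at MII (0.92, adjusted p = 0.0492).

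Of the 13 genes of caspase activation, 12 were tested, and 5 were higher and 1 lower in null oocytes both in growing oocytes and at MII. Cycs, which encodes cytochrome c, had 8.80 and 6.74 FPKM in WT MII and 33.1 and 20.6 FPKM in null MII oocytes. The log2 fold change was 1.64 (SE 0.23, adjusted p = 1.85e-04, limma), 3.46-fold by the ratio of means, and Cycs was not called in growing or GV oocytes. Endog, which encodes a mitochondrial nuclease, was listed at 0 in both WT MII libraries and had 1.97 and 1.82 FPKM in null MII oocytes, and in growing oocytes it had 4.51 and 6.23 against 9.43 and 10.3 FPKM (0.78, adjusted p = 0.0023). At the GV stage Endog was called higher with median scaling alone (0.48, adjusted p = 0.0311). Diablo, whose protein relieves the inhibition of caspases, was higher in growing oocytes (0.46, adjusted p = 0.0167) and at MII (0.62, adjusted p = 0.0029).

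Vdac2, which encodes a channel of the outer membrane that binds BAK, was lower in null growing oocytes (85.0 and 77.8 against 50.4 and 37.5 FPKM, log2 fold change -0.89, adjusted p = 0.0041) and higher at MII (0.56, adjusted p = 0.0425), and median scaling lost the second call (0.39, adjusted p = 0.0531). At the GV stage Vdac2 was not called on the deposited scale (0.05, adjusted p = 0.858) but was higher under the other scalings (0.50, adjusted p = 0.0314 without the factor and 0.58, adjusted p = 0.0216 with median scaling). Casp2, an initiator caspase known from oocytes, was lower at the GV stage (-0.70) and at MII (-0.44, adjusted p = 0.0208), of which the MII call held under both other scalings. Htra2, which encodes a mitochondrial protease, was lower at the GV stage (-0.71, adjusted p = 0.0051), and that call was lost without the factor (-0.32, adjusted p = 0.257) and with median scaling (-0.22, adjusted p = 0.354). Casp8 and Aifm1 were not called between genotypes on the deposited scale, and Casp8, the initiator caspase of death receptors, was higher in null GV oocytes without the factor (0.63, adjusted p = 0.0127) and with median scaling (0.68, adjusted p = 0.0090). In GV oocytes the list gave 0 higher and 3 lower on the deposited scale, 3 higher and 0 lower without the factor and 4 higher and 0 lower with median scaling, beside the shares of all genes given above for each scaling.

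Among the 5 inhibitors of apoptosis, Birc5, which encodes survivin and is also needed for chromosome segregation, moved most. It had 57.4 and 51.9 FPKM in WT MII oocytes and 627 and 501 FPKM in null MII oocytes, 10.3-fold higher by the ratio of means (log2 fold change 3.34, SE 0.17, adjusted p = 5.14e-08, limma). From GV to MII, Birc5 fell 20.1-fold in WT and 1.37-fold in null oocytes, and that difference was called (interaction 3.84, adjusted p = 5.53e-07). Without the factor the WT fall was 5.92-fold and Birc5 rose 1.52-fold in null oocytes (log2 fold change 0.60, adjusted p = 9.85e-04), and with median scaling the fall was 4.61-fold and the rise 1.85-fold (0.88, adjusted p = 2.23e-04). Before maturation it was lower in null oocytes (-0.51 in growing and -0.50 in GV), and neither call held under the other scalings, the GV value turning to 0.04 with median scaling. Birc3 was higher at MII (58.3 and 66.3 against 103 and 114 FPKM, 0.79, adjusted p = 0.0039). At the GV stage 4 of the 5 inhibitors were lower on the deposited scale, where 40.6% of all genes were, and 1 was lower under either of the other scalings, beside 13.5% and 11.4%. Among the 4 were Birc2 (-0.52, adjusted p = 0.0416) and Birc6 (-0.49, adjusted p = 0.0352), which encode ubiquitin ligases, and neither was called under the other scalings or at another stage.

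All 4 genes of the p53 family were tested. Trp53 was higher in null MII oocytes, with 17.3 and 17.7 FPKM beside 9.14 and 9.31 FPKM in WT (log2 fold change 0.85, adjusted p = 0.0068, limma), and the call held under both other scalings. In growing oocytes both null libraries lay above both WT libraries without a call on the deposited scale (0.40, adjusted p = 0.141), and Trp53 was called higher there without the factor (0.68, adjusted p = 0.0151) and with median scaling (0.66, adjusted p = 0.0159). Trp63, the family member known for guarding oocytes, was lower in null growing oocytes (11.9 and 9.75 against 7.26 and 5.97 FPKM, -0.63, adjusted p = 0.0153) and in null GV oocytes (8.02 and 6.50 against 3.99 and 3.42 FPKM, -0.81, adjusted p = 0.0035). Mdm2, whose product degrades p53, was lower in null GV oocytes (-0.65, adjusted p = 0.0044). The Trp63 and Mdm2 calls were lost without the factor and with median scaling.

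**Figure D5:**
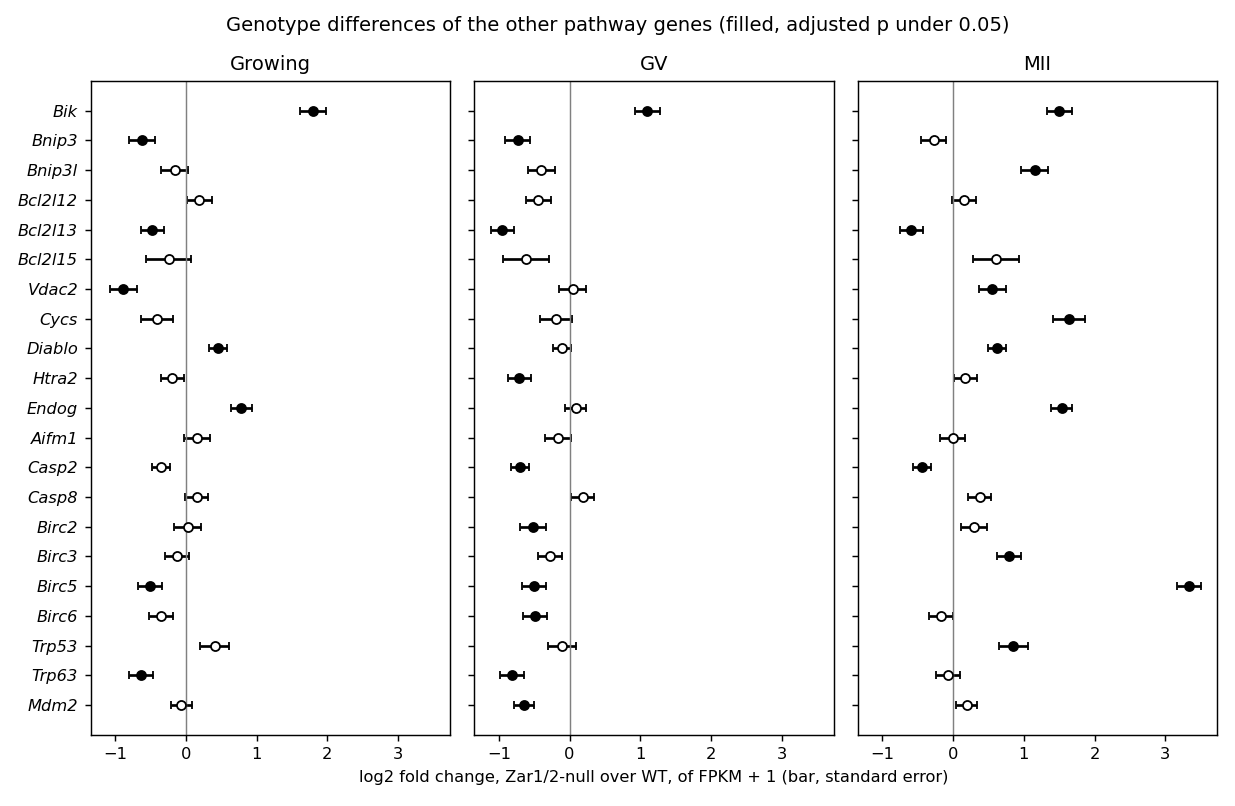
Log2 fold change of FPKM + 1 (horizontal axis, Zar1/2-null over WT) of the 21 pathway genes with a group mean of at least 5 FPKM, in growing, GV and MII oocytes, with the SE as a bar and filled points where the adjusted p was under 0.05. Bik lies to the right at all 3 stages (1.80, 1.10 and 1.50), and Birc5 reaches 3.34 at MII after -0.51 and -0.50 before it. The values are on the deposited scale, on which several GV calls depend.

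The genes whose pattern was most like that of Bcl2l10 were sought among the 4270 genes whose mean reached 10 FPKM, by Pearson's r of log2(FPKM + 1) over the 12 libraries. They were Tesc (r = 0.987), Ddx39 (0.976) and Polr2c (0.960). For Bad they were Ewsr1 (0.992), Rims3 (0.989) and Bscl2 (0.982), of 4271 genes. Tesc, for example, had group means of 188 FPKM in WT GV, 105 FPKM in WT MII and 187 FPKM in null MII oocytes. Bscl2 had 39.4 FPKM in WT MII and 118 FPKM in null MII oocytes. The points share the ERCC factor of each library, so these values describe likeness on the deposited scale.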

How the data were processed

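The authors cut reads to 50 bp, aligned them to mm9 (TopHat2 2.1.1), assigned unique reads to UCSC gene models with Cufflinks 2.2.1 and deposited FPKM values multiplied by an ERCC factor, as 1 table of 23230 genes and 12 libraries. No counts were used here, so the depth behind a value is unknown, and a listed 0 can be a failed estimate (30.9% to 38.6% of genes per library). The strand of reads was not used. Each factor was recovered from the values, which after division by it have 6 significant digits. log2(FPKM + 1) of the 11502 genes that reached 1 FPKM in any library was modelled by group with limma 3.58.1 (R 4.3.3, intensity trend, Benjamini-Hochberg adjustment, threshold 0.05), and the fit was tested on simulated data. Other settings were no ERCC scaling, median scaling, a pseudocount or floor of 0.1 FPKM, no filter, a mean of at least 5 FPKM, no trend, a replicate block, only the compared libraries and leaving out each library. The members and lists were chosen with earlier results of these data known. Named were all members, pathway genes with a group mean of at least 5 FPKM, and the 3 genes most like Bcl2l10 and Bad. Positions and 3′-UTRs came from an mm9 annotation.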

Additional observations from a re-analysis of the deposited data

Results flagged for a closer look

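The change between stages differed between genotypes, by the interaction term of limma, in 5 cases. From growing to GV it differed for Bad (-0.62) and for Bok (0.81), on the log2(FPKM + 1) scale, null minus WT, beside 13.9% of all genes tested. From GV to MII it differed for Bad (1.10), Bax (0.73) and Bcl2l10 (0.76), beside 34.6%. Bok passed the filter through WT growing replicate 1 alone. Only the difference of Bad from GV to MII was called under every alternative that tested it. That of Bcl2l10 was -0.0036 with median scaling.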

How the results depend on the processing

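Results are numbers of members called. Without the ERCC scaling they were 0 for genotype at GV (1 in the reported fit), 0 for growing to GV in WT (3), 5 in null oocytes (3 lower in the reported fit, here 2 lower and 3 higher), 6 for GV to MII in null oocytes (4), 1 for the genotype difference in growing to GV (2) and 1 for that in GV to MII (3), and 1 member passed the 3-fold rule at MII. With median scaling they were 0, 0, 4 (2 lower and 2 higher), 6, 0 and 1, and 2 instead of 3 for genotype at MII. Under both scalings Bcl2l10 and Bad were called higher among the 6 for GV to MII in null oocytes, where the reported 4 were all lower. With no filter the numbers were 0 for genotype at GV, 2 at MII and 1 for either difference. With a mean of at least 5 FPKM, where 3 members were tested, they were 0 in growing and at GV, 0 and 1 for growing to GV in WT and null, 3 and 2 for GV to MII in WT and null, and 0 for the difference in growing to GV. A pseudocount of 0.1 FPKM gave 1 for growing to GV in WT and 0 for the difference there, a floor of 0.1 FPKM let 1 member (Bok) pass the 3-fold rule in growing and 1 (Bad) at MII, and only the compared libraries gave 1 for growing to GV in WT, 0 for the difference there, and 2 at MII. Beside these counts of 0, 0 to 3 members had an unadjusted p under 0.05 in limma. Leaving out 1 library gave 2 to 3 in growing, 0 to 1 at GV, 2 to 3 at MII, 0 to 3 and 3 to 4 for growing to GV in WT and null, 5 to 6 and 2 to 4 for GV to MII, and 0 to 2 and 1 to 3 for the differences. The median of all genes moved from GV to MII by -1.28 in WT as deposited and by -0.43 and -0.15 without the factor and with median scaling.

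Reversed were Bcl2l10 from growing to GV in null oocytes (0.35 without the factor), Bcl2l10 from GV to MII in WT (1.12 and 1.48) and its genotype difference there (-0.0036 with median scaling), Bad from GV to MII in null oocytes (0.59 and 0.69) and Birc5 at GV (0.0389 with median scaling). The cause was not tested. Of 523 alternative values of called member results, 424 kept direction and call, 96 lost the call and 3 reversed. Of 530 of uncalled ones, 512 stayed uncalled, 15 became called and 3 turned and were called. Deviations of same-numbered libraries correlated over genes between -0.117 and 0.163 over 15 pairs of groups, with 4 over 0.1. Such a correlation cannot show a link that shifts all genes of a library together. The factor was 1 in both WT growing libraries, although the study lists unequal ERCC shares for them. By the study's formula each was then its own reference, which the same-numbered libraries of other groups may share. The difference between these WT growing shares is therefore absent from the deposited values. A replicate block gave 4 instead of 3 for growing to GV in WT and changed no other count.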
